A study of Homo sapiens with 4 samples.

Results

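The loops and contact domains described here are those at MYC and PVT1 on human chromosome 8. Members were every chromatin loop with at least 1 anchor in the 2 Mb window chr8:128000000-130000000 (GRCh37) and every contact domain overlapping it. Of 77275 loop calls in 4 Hi-C libraries, 184 were members. Joining calls whose anchor midpoints lay within 20 kb of each other gave 81 joined loops in the window, of 34417 in the genome. Of 7418 domains, 8 were members. Arima-HiC, which ligates and sequences DNA ends that lie close in the nucleus, was done on MDA-MB-231 cells, an established triple negative breast cancer (TNBC) line. Cells received DMSO (vehicle) or 75 nM THZ1, a covalent inhibitor of the kinase CDK7, for 48 h. Each condition had 2 libraries, numbered as replicates. The study's methods say that cells were treated in duplicate, and the labels do not say whether the libraries came from separate cultures. Every p-value thus measures only the spread between libraries, which may be technical. The lists hold no expression values, so the identity of the line could not be checked from marker genes.

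MYC encodes a transcription factor that drives growth and proliferation and is an oncogene in many tumors, breast cancer included. PVT1, just downstream, makes a long noncoding RNA (lncRNA), and its gene body holds enhancers that can contact the MYC promoter. The gene deserts on either side carry further tissue-specific enhancers, and their contacts with MYC are chromatin loops of the kind that Hi-C detects. Many such loops end at sites bound by CTCF, a protein at which loop extrusion by cohesin pauses.

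In GENCODE 44 lifted to GRCh37, MYC spans chr8:128747680-128755197 and PVT1 spans chr8:128806772-129199347, both on the forward strand. A loop was taken to be anchored at a gene when an anchor overlapped the gene body or the 5 kb before its start. The lncRNA CASC11, on the reverse strand at chr8:128698588-128751233, overlaps the start of MYC, so that the 5 kb anchor chr8:128745001-128750000 holds an exon of each gene and Hi-C cannot tell them apart. Of 154550 anchors in the 4 lists, 0 lay beyond a chromosome end of GRCh37.

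Libraries differed in the number of loops called genome-wide, from 15066 to 24219, with both vehicle libraries above both THZ1 libraries. Sequencing depth per library is not given in the lists. Contacts observed at called loops summed to between 551436 and 762701 per library, a total that depends on how many loops were called. Window loops rested on 12 to 132 observed contacts each, with medians of 30 and 28 for vehicle and 28 and 33 for THZ1. Pairs of values are given from here on with replicate 1 first.

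With THZ1, fewer loops were listed in the window. Vehicle replicate 1 held 51, vehicle replicate 2 held 59, THZ1 replicate 1 held 35 and THZ1 replicate 2 held 39. The groups did not overlap, with 55 ± 5.66 loops in vehicle and 37 ± 2.83 in THZ1 (mean ± SD, n = 2 each; exact two-sided permutation p = 0.333, which is the smallest that 2 libraries against 2 can give). As a share of all loops of the same library, the window took 0.246% and 0.244% in vehicle and 0.203% and 0.259% in THZ1, and these groups overlapped (exact permutation p = 1). The lower number in the window thus accompanied a lower number of loops called in the whole genome.

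**Figure D1:**
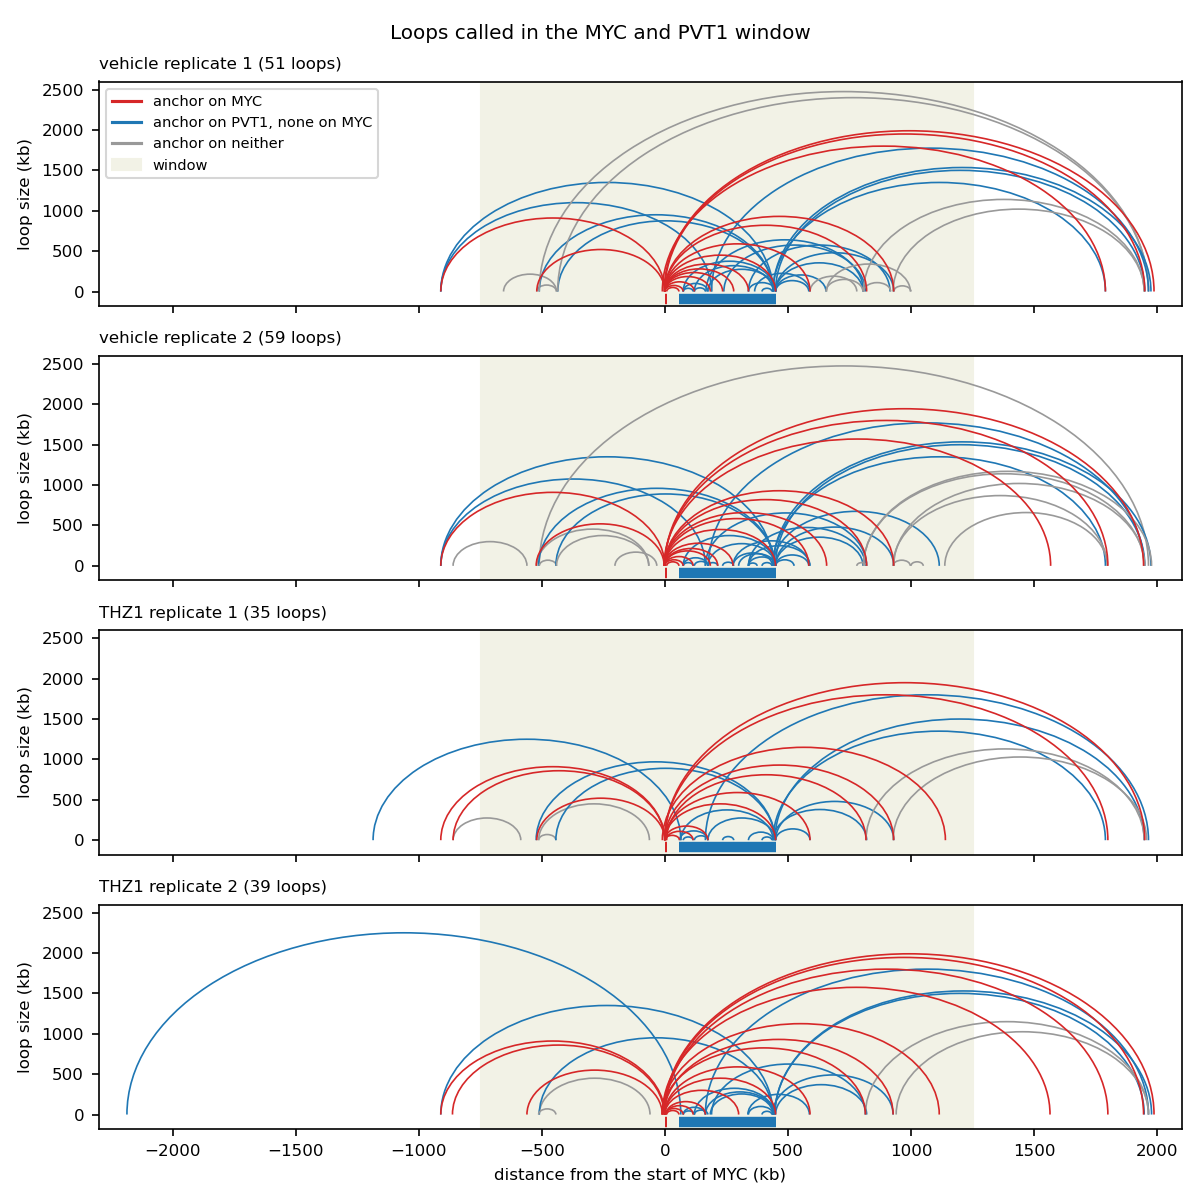
Each arc joins the anchor midpoints of 1 called loop, with distance from the start of MYC in kb on the horizontal axis and arc height equal to loop size in kb, for each of the 4 libraries. Bars under the arcs mark MYC (red) and PVT1 (blue); arcs from MYC are in red, arcs from PVT1 that do not touch MYC in blue and the rest in gray, and arcs fan out from MYC in every library while gray and blue arcs are fewer in both THZ1 libraries.

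Loops in the window were long. Their median size, from anchor start to anchor start, was 375 kb in each vehicle library, 480 kb in THZ1 replicate 1 and 550 kb in THZ1 replicate 2, against 140 kb in vehicle and 200 kb in THZ1 over all loops. Loops over 1000 kb made up 25.5% and 22.0% of window loops in vehicle replicates 1 and 2, and 25.7% and 30.8% in THZ1 replicates 1 and 2. The 95% Wilson intervals of these shares were 15.5% to 38.9%, 13.4% to 34.1%, 14.2% to 42.1% and 18.6% to 46.4%, and all overlapped. Such intervals cover counting error only. Over all loops, the share above 1000 kb was 2.65% and 2.76% in vehicle and 5.06% and 4.94% in THZ1.

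Small loops of 90 kb or less were a minor share at this locus. They made up 37.3% and 36.8% of all loops in vehicle and 26.2% and 25.5% in THZ1, without overlap. Within the window, 7 and 13 loops in vehicle and 6 and 7 in THZ1 were this small. Their shares of window loops were 13.7% and 22.0% in vehicle and 17.1% and 17.9% in THZ1, and the groups overlapped (exact permutation p = 1). With Wilson intervals from 6.81% to 34.1% across the 4 libraries, a difference of the genome-wide size was not detectable at this number of loops. Between 90 and 200 kb, each vehicle library held 8 loops and THZ1 held 5 and 3. From 200 to 500 kb, each vehicle library held 13 and THZ1 held 7 and 9. Vehicle means were 2 and 1.625 times those of THZ1 in these size classes, against 1.39 times for all loops of the genome. The genome value pools all sizes, and the mix of sizes differed between conditions genome-wide. The genome value is thus not a like comparison for a single size class.

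The promoter of MYC was the most frequent loop anchor at 5 kb width. The 5 kb bin chr8:128745001-128750000, which holds the start of MYC, was an anchor 13 times in vehicle replicate 1, 11 times in vehicle replicate 2, 10 times in THZ1 replicate 1 and 7 times in THZ1 replicate 2. The sum of 41 ranked 1 among 29472 bins of 5 kb that anchored any loop at that width, whose median was 2. Counting all anchor widths, MYC anchored 16 loops in each vehicle library, 13 in THZ1 replicate 1 and 17 in THZ1 replicate 2. These groups overlapped (16 in vehicle and 15 ± 2.83 in THZ1, mean ± SD, n = 2 each; exact permutation p = 1). Among 20090 protein-coding genes, MYC ranked 14 by the mean number of loops anchored, where the median gene had 1. All genes that are no longer than 20 kb with their promoter, 7064 in number, had fewer or as many, and MYC ranked 1 among them.

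Partners of MYC lay on both sides, but mostly downstream. Upstream partners numbered 2 in each vehicle library and 3 in each THZ1 library, and downstream partners 14, 14, 10 and 14 in the same order. MYC-to-PVT1 loops numbered 8 and 7 in vehicle and 4 and 6 in THZ1 (vehicle mean 1.5 times THZ1, against 1.39 times for all loops). MYC loops with no anchor on PVT1 numbered 8 and 9 in vehicle and 9 and 11 in THZ1. The exact permutation p was 0.333 for the former and 0.667 for the latter. The median size of MYC loops was 485 and 553 kb in vehicle and 810 and 825 kb in THZ1, without overlap (exact permutation p = 0.333).

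**Figure D2:**
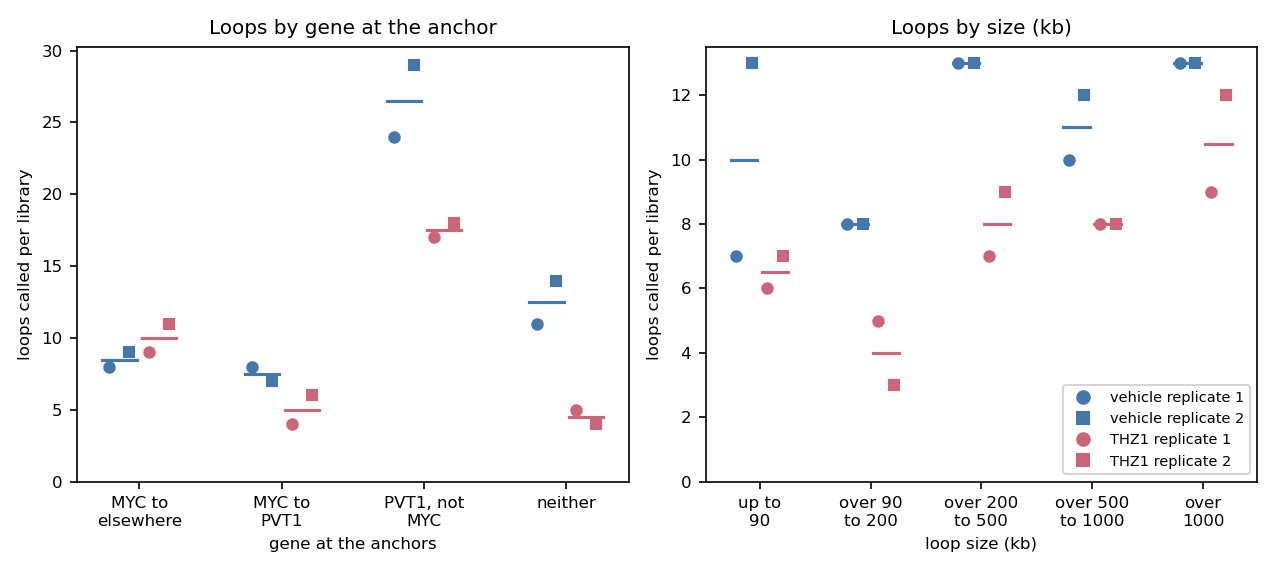
Points give the number of window loops per library, split on the left by the gene at the anchors and on the right by loop size in kb, with circles for replicate 1, squares for replicate 2 and lines for the mean of 2 libraries. PVT1 loops that do not touch MYC numbered 24 and 29 in vehicle and 17 and 18 in THZ1. Loops on neither gene numbered 11 and 14 against 5 and 4. Their vehicle means were 1.51 and 2.78 times those of THZ1, against 1.39 times for all loops of the genome. MYC loops to elsewhere overlapped between conditions.

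Of the 81 joined loops, 21 were anchored at MYC, and 10 of these were called in all 4 libraries. For each, contacts are given as the ratio of observed contacts to those expected from the donut-shaped neighborhood of the loop pixel, so that a ratio of 1 is the local background. The lists give each library's own called pixel, and a ratio from a wider anchor is not on the same footing as one from a narrower anchor. Where widths differed between libraries, this is said. Positions and sizes are those of the call with the lowest donut FDR, and calls in the other libraries could lie up to 20 kb away. Only 3 of the 23 window loops called in all libraries had identical anchors in each.

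The upstream partner shared by all libraries was chr8:127835001-127840000, in an exon of PCAT1, a lncRNA named for prostate cancer. This 910 kb loop had 39, 32, 28 and 30 observed contacts in vehicle replicates 1 and 2 and THZ1 replicates 1 and 2, against 1.95, 2.37, 3.60 and 4.15 expected. The ratios were thus 20.0 and 13.5 in vehicle and 7.77 and 7.22 in THZ1. Both THZ1 ratios lay below both vehicle ratios, and vehicle replicate 1 had the highest ratio of any MYC loop shared by all libraries.

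Within PVT1, MYC contacted 4 places in all libraries. The nearest, 50 kb away at the start of PVT1 (chr8:128800001-128810000), had ratios of 3.25 and 3.30 in vehicle and 2.55 and 2.39 in THZ1, with THZ1 replicate 1 called at 5 kb and the others at 10 kb. At 115 kb, in a PVT1 exon bin (chr8:128860001-128865000), ratios were 5.39 and 5.19 in vehicle and 5.86 and 5.46 in THZ1, and this was the only shared window loop whose THZ1 ratios both exceeded both vehicle ratios. A PVT1 intron 185 kb away (chr8:128930001-128935000) gave 7.03 in each vehicle library and 5.36 and 7.37 in THZ1, which overlapped. The 3′ end of PVT1, 450 kb away (chr8:129195001-129200000, exonic), gave 12.1 and 10.5 in vehicle and 4.58 and 8.69 in THZ1, from 40, 40, 23 and 28 observed contacts. The conditions did not overlap there, although both THZ1 libraries differed from each other by more than the vehicle libraries did.

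Beyond PVT1, MYC had 5 partners in all libraries. A bin with no named gene 590 kb away (chr8:129335001-129340000) gave 6.74 and 7.59 in vehicle and 6.52 and 6.21 in THZ1. An intron of the lncRNA LINC00824, 820 kb away (chr8:129565001-129570000), gave 6.43 and 13.0 in vehicle and 3.75 and 2.74 in THZ1, where the THZ1 loops were called at 10 and 25 kb rather than 5 kb. The remaining 3 partners lay in CCDC26, a lncRNA gene on the reverse strand. At 930 kb (chr8:129675001-129680000, exonic), ratios of 10.3 and 6.25 in vehicle and 7.58 and 3.85 in THZ1 overlapped, the last of them at 10 kb.

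The most distant MYC partners called in all libraries had ratios that overlapped between conditions. At 1800 kb (chr8:130545001-130550000, an intron of CCDC26), vehicle replicate 2 gave 11.0, THZ1 replicate 1 gave 8.05 and THZ1 replicate 2 gave 10.5, while vehicle replicate 1 was called only at 25 kb with 3.19. At 1950 kb, the start of CCDC26 (chr8:130695001-130700000) gave 12.9 and 15.1 in vehicle and 13.4 and 9.01 in THZ1, all at 5 kb.

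**Figure D3:**
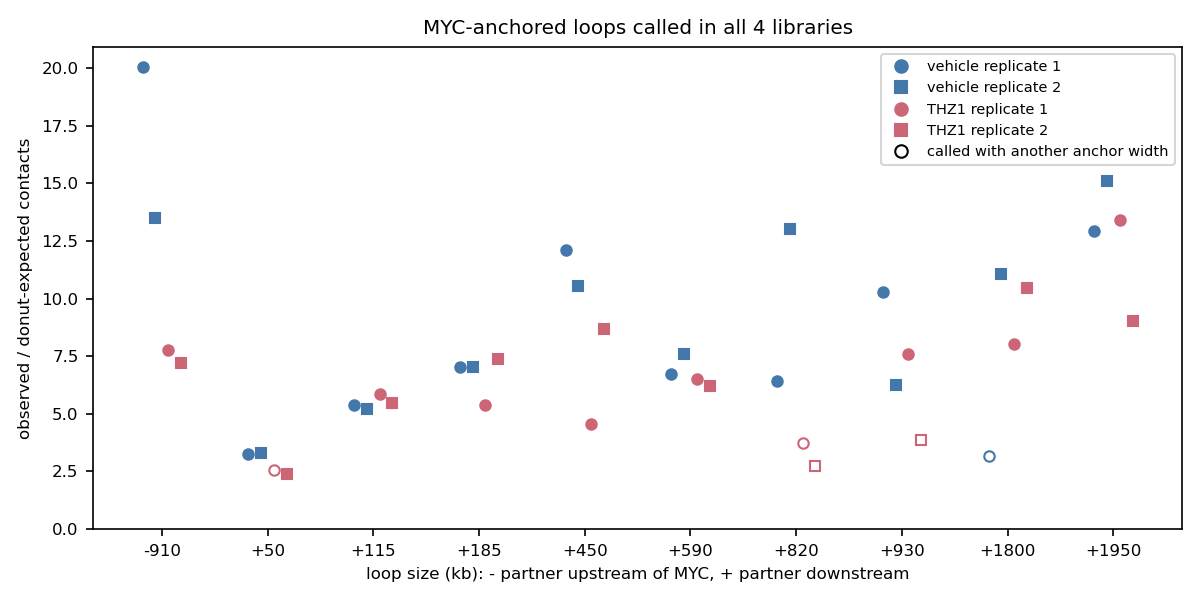
Ratio of observed to donut-expected contacts (vertical axis) for the 10 MYC loops called in all 4 libraries, ordered by the position of the partner and labelled by loop size in kb. Blue is vehicle, red THZ1, circles replicate 1, squares replicate 2 and open symbols calls at another anchor width. The vehicle points stand above the THZ1 points at -910, +50, +450, +590 and +820 kb, and below them at +115 kb. The points mix at +185, +930, +1800 and +1950 kb.

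The other 11 joined MYC loops were missing from at least 1 library. The loop called in both vehicle libraries and neither THZ1 library ended at different bins of PVT1 in each. In vehicle replicate 1 it was 235 kb long and ended at chr8:128980001-128985000, in an exon bin of PVT1, with 39 contacts and a ratio of 8.25. In vehicle replicate 2 it was 215 kb long and ended at chr8:128960001-128965000, an intron of PVT1 and the start of the lncRNA LINC02912, with 50 contacts and a ratio of 7.11. The loop called in both THZ1 libraries and neither vehicle library joined MYC to chr8:127885001-127890000 in a PCAT1 exon, 860 kb upstream, with ratios of 6.41 at 5 kb and 3.52 at 10 kb. That anchor lies 50 kb from the 910 kb upstream partner that all libraries share.

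Among the rest, an intron of CASC19 and PCAT1, both lncRNAs, 520 kb upstream (chr8:128225001-128230000) was called in every library except THZ1 replicate 2. A PVT1 exon bin 280 kb downstream was called in every library except THZ1 replicate 1, with ratios of 8.58, 4.69 (at 10 kb) and 5.66. Vehicle replicate 1 alone listed a PVT1 exon bin 340 kb away with a ratio of 7.92, and vehicle replicate 2 alone a bin without a named gene 660 kb away with 5.50. Vehicle replicate 1 and THZ1 replicate 2 shared a loop of 1990 kb with ratios of 7.76 and 4.53, whereas vehicle replicate 2 and THZ1 replicate 2 shared a loop of 1575 kb into CCDC26. Calls in a single THZ1 library came at 25 kb anchors, at 550 kb upstream and at 1125 kb in replicate 2 and at 1150 kb in replicate 1, with ratios of 3.07, 3.01 and 2.63. The calls of 1125 and 1150 kb ended in adjacent bins of CCDC26, chr8:129850001-129875000 and chr8:129875001-129900000. Neighboring 25 kb bins lie too far apart to be joined within 20 kb, and no vehicle library listed a MYC loop to either bin.

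PVT1 anchored more loops than MYC, over a much longer gene body. It anchored 32 and 36 in vehicle and 21 and 24 in THZ1, with no overlap (34 ± 2.83 and 22.5 ± 2.12, mean ± SD, n = 2 each; exact permutation p = 0.333). The vehicle mean was 1.51 times the THZ1 mean, against 1.39 times for all loops of the genome. Loops with both anchors on PVT1 numbered 8 and 12 in vehicle and 8 in each THZ1 library, which overlapped. Those with an anchor on PVT1 and none on MYC numbered 24 and 29 against 17 and 18, also 1.51 times by the means. Median size was 330 and 263 kb in vehicle and 275 and 290 kb in THZ1.

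The 3′ end of PVT1 was a further cluster of anchors, chosen for description after its values were seen. Within 20 kb of that end, loops numbered 16 and 18 in vehicle and 12 in each THZ1 library. The vehicle mean was 1.42 times the THZ1 mean, near the 1.39 times of all loops of the genome. The 5 kb bin at the gene's end was an anchor 9 and 10 times in vehicle and 4 and 2 times in THZ1. Calls at 10 or 25 kb are not in that count. Window loops with 5 kb anchors numbered 32 and 35 in vehicle and 21 and 18 in THZ1, 1.72 times by the means. The nearby bin chr8:129185001-129190000 was an anchor 2 and 1 times in vehicle and 2 times in each THZ1 library.

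Apart from those on MYC, 10 loops on PVT1 were called in all 4 libraries. From the 3′ end, the partner 355 kb downstream in a LINC00824 intron (chr8:129550001-129555000) gave ratios of 7.93 and 6.03 in vehicle and 4.64 and 4.45 in THZ1. The partner in a CCDC26 exon, 480 kb downstream, gave 8.30 and 7.02 in vehicle and 5.15 and 3.32 in THZ1, the last at 10 kb. The partner at the start of CCDC26, 1500 kb away, gave 8.80 and 7.13 in vehicle at 5 kb, and 6.32 and 4.57 in THZ1 at 10 kb. In each of these loops, both THZ1 ratios lay below both vehicle ratios. Of the 8542 loops of the genome called in all libraries with a ratio, 50.3% did the same.

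Inside PVT1, 6 loops were called in all libraries. The loop of 40 kb between introns at chr8:129140001-129145000 and chr8:129180001-129185000 gave 5.33 and 3.71 in vehicle and 2.08 and 2.86 in THZ1, from 72, 62, 39 and 50 contacts. Another of 40 kb, from chr8:128820001-128825000, gave 4.15 and 3.83 against 3.11 and 2.92, and one of 100 kb from the same anchor gave 6.65 and 4.67 against 3.13 and 3.90. For the loop of 100 kb, THZ1 replicate 1 called the first anchor at chr8:128805001-128810000. THZ1 replicate 2 called its second anchor at chr8:128910001-128915000. Loops of 45, 110 and 275 kb inside the gene had vehicle ratios of 4.23 and 3.32, 4.65 and 5.34, and 7.13 and 7.32. Their THZ1 ratios were 2.66 and 2.96, 3.96 and 3.72, and 5.11 and 5.75. Each of these internal loops was called at 5 kb in every library, with both THZ1 ratios below both vehicle ratios. The same was true of 60.6% of the 5017 loops of the genome called at the same anchor width in every library. The last PVT1 loop called in all libraries ran 950 kb from CASC19, gave 3.09 and 6.16 in vehicle and 3.12 and 3.01 in THZ1, and overlapped between conditions, with calls at 10 and 25 kb.

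Loops on neither gene numbered 11 and 14 in vehicle and 5 and 4 in THZ1. The vehicle mean was 2.78 times the THZ1 mean, against 1.39 times for all loops of the genome. Of the loops on neither gene, 3 were called in all libraries. The loop of 70 kb between the start of CASC19 and an intron of CASC8, another lncRNA, gave ratios of 6.70 and 7.50 in vehicle at 5 kb, and 3.55 and 3.25 in THZ1 at 10 kb. The loop of 1140 kb between LINC00824 and the start of CCDC26 gave 4.65 and 4.71 against 3.61 and 2.41 (the last at 25 kb), and that of 1020 kb within CCDC26 gave 6.50 and 11.7 against 3.62 and 2.28. The THZ1 values of the latter were called at 10 and 25 kb, and only vehicle replicate 2 at 5 kb.

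The 3 largest loops were of 2475, 2400 and 2250 kb. The largest joined chr8:128225001-128250000, at the start of CASC19, to chr8:130700001-130725000, just upstream of CCDC26, in both vehicle libraries with ratios of 3.61 and 4.72 and in no THZ1 library. The next ran from CASC8 to the same place in vehicle replicate 1 alone, with 4.05. The third joined a bin without a named gene to the start of PVT1 in THZ1 replicate 2 alone, with 5.75.

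Library by library, 23 of the 81 joined loops (28.4%) were called in all 4, where 24.8% of all joined loops of the genome were. Both vehicle libraries and no THZ1 library called 5 (6.17%), against 9.95% in the genome, and both THZ1 libraries and no vehicle library called 1 (1.23%), against 2.39%. A call can lie within 20 kb of more than 1 joined loop, in the window as in the genome, and 1 of the 5 shares its vehicle replicate 2 call with a joined loop that both THZ1 libraries also list. These shares are near the background, and no test of the list was made. Neighboring 25 kb bins are not joined within 20 kb, in the window as in the genome. The MYC loops of 1125 and 1150 kb in THZ1 thus count as calls of a single library. By anchor, all 4 libraries called 10 of 21 loops on MYC and 14 of 46 on PVT1, where loops joining the genes count in both. Calls in a single library made up 36 (44.4%), against 39.8% in the genome. Of these, 12 came from vehicle replicate 1 (14.8% of the joined loops, against 10.6% in the genome) and 17 from vehicle replicate 2 (21.0% against 17.1%). THZ1 replicate 1 alone gave 3 (3.70% against 7.09%) and THZ1 replicate 2 alone gave 4 (4.94% against 5.10%).

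Besides the MYC loop of 215 kb and the largest loop, the rule placed loops of 655, 70 and 1775 kb with both vehicle libraries and no THZ1 library. The first ran from a PVT1 exon bin to LINC00824, with ratios of 5.14 at 10 kb and 8.22 at 5 kb. THZ1 replicate 2 listed a nearby loop at 25 kb, from chr8:128925001-128950000 to chr8:129550001-129575000, with a ratio of 2.50. Its first anchor lies just beyond the 20 kb of the rule. The second lay within CCDC26, with 4.28 at 5 kb and 2.73 at 10 kb. The third joined PVT1 at chr8:128925001-128950000 to the region upstream of CCDC26, with 4.42 at 25 kb and 5.08 at 10 kb. It is not a loop of vehicle alone. Both THZ1 libraries list a loop to the same end from chr8:128900001-128925000, with ratios of 3.84 and 3.92, and the call of vehicle replicate 2 lies within 20 kb of it while that of vehicle replicate 1 does not. Matching within 10 kb left 16 of 93 joined loops in all 4 libraries (17.2%), against 18.1% of 38500 in the genome. Both libraries of vehicle alone then called 4 (4.30%, against 9.15%), and both of THZ1 alone also called 4 (4.30%, against 2.85%). Matching within 50 kb left 24 of 67 joined loops in all 4 libraries (35.8%), against 35.7% of 26281 in the genome. Vehicle alone then had 3 (4.48%, against 9.22%) and THZ1 alone 1 (1.49%, against 2.34%).

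Ratios of window loops called in all libraries were mostly lower with THZ1. Both THZ1 ratios lay below both vehicle ratios in 17 of 23 loops, above them in 1, and overlapped in 5. Over all 8542 such loops with a ratio, the share below was 50.3% and the share above was 5.65%. The median difference, as the log2 ratio in THZ1 minus that in vehicle, was -0.56 in the window and -0.35 over all loops called in every library. Over every loop that a library called, shared or not, median ratios were 5.39 and 5.05 in vehicle and 3.75 and 3.85 in THZ1 in the window, and 4.60 in each vehicle library and 4.10 and 4.04 in THZ1 over the genome. At 5 kb anchors only, the window gave 6.81 and 6.25 against 4.64 and 5.56, whereas the genome gave 5.27 and 5.20 in vehicle and 5.31 and 5.37 in THZ1. The genome median at 5 kb was not lower with THZ1, while that of the window was lower in both THZ1 libraries. Each of these medians is over a library's own calls, so they do not follow the same loops. For loops called at the same anchor width in every library, 10 of 13 in the window lay below, beside 60.6% of 5017, with medians of -0.42 and -0.37. Split by gene, THZ1 lay below in 5 of 10 MYC loops, 9 of 10 PVT1 loops off MYC and 3 of 3 others, with medians of -0.38 and -0.53 for the first and second. The 3 others all had unlike anchor widths, with at least 1 THZ1 library called wider than both vehicle libraries, so their ratios are not on the same footing. At equal widths THZ1 lay below in 3 of 6 MYC loops (median -0.26) and 7 of 7 PVT1 loops off MYC (median -0.42).

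**Figure D4:**
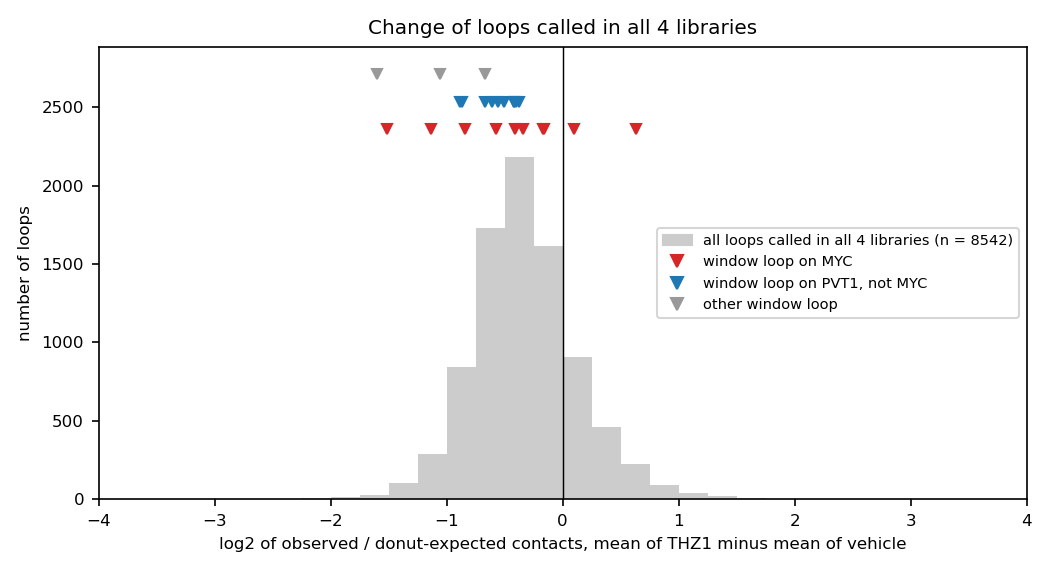
Gray bars count the 8542 loops of the genome called in all 4 libraries by the log2 ratio of observed to expected contacts, mean of THZ1 minus mean of vehicle, and triangles mark the 23 window loops at their own value. The bulk of all loops lies below 0 (6800 of 8542, median -0.35). Of 23 window loops, 21 lie below 0, and those on MYC (red) spread widest.

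Strength was tested on loops with identical anchors in all libraries, by edgeR's quasi-likelihood test on observed contacts with the donut expectation as offset. Of 2617 loops tested, 721 (27.6%) were called weaker with THZ1 at an adjusted p under 0.05, and the median log2 change was -0.41. That count itself was unstable, with 226 called weaker without vehicle replicate 1, 0 without any 1 of the other libraries (698 to 821 at an unadjusted p under 0.05), 47 and 72 with the horizontal and vertical expectation, 16 with DESeq2, and 108 of 175 called loops without an expectation. Only 3 window loops could be tested, and all 3 were called weaker. The 910 kb loop from PCAT1 to MYC changed by a log2 value of -1.13 (SE 0.241, adjusted p = 0.00413), or -0.72 relative to the median loop. The 450 kb loop from MYC to the 3′ end of PVT1 changed by -0.86 (SE 0.258, adjusted p = 0.0199), or -0.45 relative to the median. The 40 kb loop inside PVT1 changed by -0.85 (SE 0.211, adjusted p = 0.00856), or -0.44 relative to the median.

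Each call was lost when any 1 of the 4 libraries was left out (edgeR adjusted p from 0.0581 to 0.383), with the horizontal or vertical expectation, without an expectation, and when each library's own pixel within 20 kb was taken, where edgeR called 0 of 8529 loops (1934 at an unadjusted p under 0.05) and 0 of 23 in the window (8 at that level). In the observed contacts alone, the median log2 change of the 3 loops was -0.60 and that of all loops -0.01. The expected contacts moved by 0.27 and 0.40. Fitted without an expectation, the 910, 450 and 40 kb loops changed by -0.28, -0.63 and -0.57. With the horizontal expectation they changed by -0.02, -0.62 and -0.89. The part of the expectation in the call was not tested.

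Domains, the self-contacting blocks found by Arrowhead on a 10 kb grid, numbered 2 in each library. Upstream of MYC, vehicle replicates 1 and 2 had a block of 890 kb (chr8:127830001-128720000, corner score 1.10) and 900 kb (chr8:127830001-128730000, 1.11), which spans CASC19 and CASC8 and ends just before MYC. Both THZ1 libraries instead had a block of 280 kb, chr8:127880001-128160000, with scores of 1.05 and 1.15, over part of PCAT1 and CASC19. No library of the other condition listed a block matching either within 20 kb.

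Downstream, a block starting just before MYC and ending within PVT1 was shared across conditions. It measured 240 kb in vehicle replicate 2 and THZ1 replicate 1 (chr8:128740001-128980000, scores 1.41 and 1.30) and 220 kb in THZ1 replicate 2 (score 1.37). Vehicle replicate 1 listed a smaller block of 150 kb that started between MYC and PVT1 and ended within PVT1 (chr8:128790001-128940000, score 0.927). Summed length was 1040 and 1140 kb in vehicle and 520 and 500 kb in THZ1, without overlap (exact permutation p = 0.333). Genome-wide, more domains were listed with THZ1 (2477 and 2345) than with vehicle (1198 and 1398). Domains over the whole genome were not shorter with THZ1. Their median size was 220 kb for THZ1 replicates 1 and 2, against 200 kb for both replicates of vehicle. Confined to domains wholly within the window, which leaves out the upstream blocks of both conditions, mean summed length was 195 kb in vehicle and 230 kb in THZ1.

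**Figure D5:**
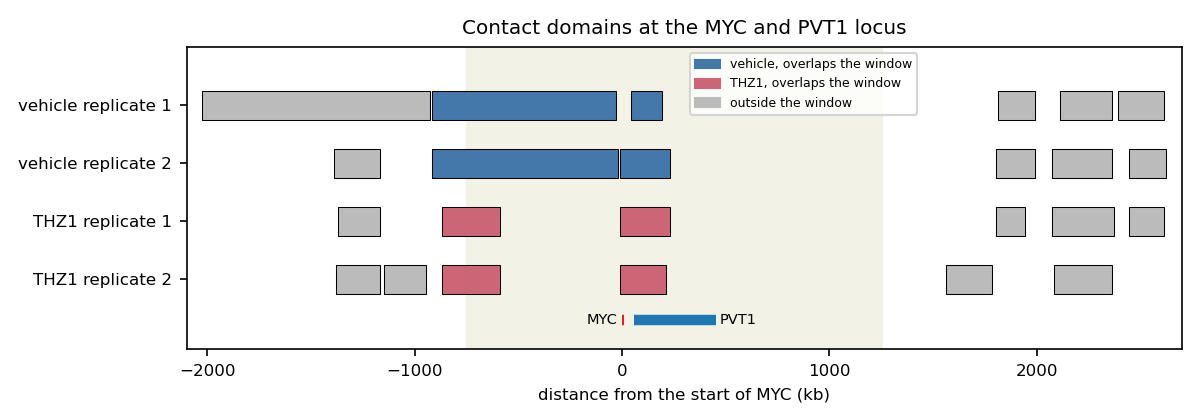
Contact domains in each library by distance from the start of MYC in kb, with those overlapping the window in blue (vehicle) and red (THZ1), others in gray, and MYC and PVT1 marked below. The upstream block is 890 and 900 kb long in vehicle and 280 kb in both THZ1 libraries, and the block over MYC and the first stretch of PVT1 recurs in 3 of 4 libraries.

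The authors' tables of loops unique to a condition held 2 loops of the window among 989 for vehicle and 0 among 177 for THZ1. In the deposited values for the condition as a whole, a loop of 35 kb inside PVT1 had 49 observed and 22.3 expected contacts, and a loop of 900 kb within CCDC26 had 23 observed and 7.13 expected. Vehicle replicate 2 also lists the first within 20 kb, and no single library lists the second.

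Of the 17 locus genes counted one by one, 13 were in the annotation. Counts here are of every loop on the gene, inside the window or not. CCDC26 had 22 and 23 in vehicle and 16 and 14 in THZ1, and PCAT1 had 17 and 19 against 20 and 14. Over the 4 libraries, 51 of the CCDC26 calls and 37 of the PCAT1 calls were window loops. CASC19 had 5 and 6 against 5 and 4, CASC8 had 4 and 3 against 2 and 1, and PRNCR1, another lncRNA, had 1 in vehicle replicate 1 and 0 elsewhere. CASC11 followed MYC, whose start it overlaps, with 16, 17, 13 and 18. Of the protein-coding neighbors, POU5F1B, a retrogene of the pluripotency factor OCT4, and GSDMC, a gasdermin, anchored 0 loops in any library. TRIB1, a pseudokinase gene, and CYRIB, a regulator of the actin cytoskeleton, anchored 0 window loops, and LRATD2 anchored 1.

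Protein-coding genes with the most similar loop counts over the 4 libraries were RDX (16, 14, 15 and 16), DLGAP1 (15, 15, 15 and 12), CDK6 (13, 15, 15 and 14), IQCJ-SCHIP1 (16, 15, 11 and 11) and PRKCE (16, 17, 14 and 9). Their summed absolute differences from MYC were 5, 9, 9, 9 and 10 loops. All are much longer than MYC, from 237 to 964 kb with promoter where MYC has 12.5 kb.

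The CTCF core motif, a consensus of 12 letters searched on both strands, was found 7 times in the window, 2 of them on the forward strand. In distinct anchors of window loops, 4 of 38 at 5 kb (10.5%), 3 of 20 at 10 kb (15.0%) and 9 of 24 at 25 kb (37.5%) held it. Of all bins of these widths in the genome, 1.87%, 3.68% and 8.81% did, and on chromosome 8 1.56%, 3.08% and 7.41%. Overlapping anchors share a match, so these counts are not independent.

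A forward match lay at chr8:128746355-128746366, in the MYC anchor and 1.33 kb before the gene's start, and another at chr8:127836819-127836830, in the upstream partner of the 910 kb loop. Both point the same way, toward PVT1. A reverse match at chr8:129332171-129332182 lay in the partner anchor of the 590 kb MYC loop as vehicle replicate 2 called it (chr8:129330001-129335000), and just before the anchor that the other libraries called. In that call the matches at MYC and at the partner point toward each other. Taking for each of the 81 joined loops the call with the lowest donut FDR, 37 had a match in at least 1 anchor and 5 in both, of which 2 had a forward match on the left and a reverse one on the right. No match was found in the 5 kb bin at the 3′ end of PVT1, which says only that these letters are not in that bin. Each match is a description of sequence and not of binding.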

How the data were processed

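Arima-HiC libraries of MDA-MB-231 cells (2 vehicle, 2 THZ1) were grouped by their labels. The submitters' processing notes name Juicer 1.6 and hg19, and the list headers name juicer_tools 1.19.02. HiCCUPS settings are not given in the sources used here. In the authors' deposited loop lists, observed values are raw counts of contacts, expected values are a signal on the same scale from 4 neighborhoods, and FDR values are q-values of at most 0.0997. Domains carry the deposited corner score of Arrowhead. The authors' tables of unique loops hold counts and expected signal per condition.

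Members and lists were chosen with earlier results of these data known. Genes came from GENCODE 44 lifted to GRCh37. Named loops were those called in all 4 libraries, those on MYC, those of both libraries of 1 condition only, and the 3 largest. Named genes were those at their anchors. Genes like MYC had the smallest summed difference in loop counts.

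Python 3.11.15 (numpy 2.4.6, pandas 2.3.3, scipy 1.17.1, matplotlib 3.10.9) and R 4.3.3 with edgeR 4.0.16 and DESeq2 1.42.0 (an alternative) were used. Library values were compared by exact permutation over 6 splits. Matching and the strength test were checked on simulated data. For strength, 2 filters were fitted. The first required a donut expectation above 0 and tested 2623 loops, of which edgeR called 650, with 3 of 3 in the window (adjusted p from 0.00813 to 0.0326). Because that fit did poorly on simulated data, the filter was replaced, after its result had been seen, by one requiring an expectation above 0 in all 4 neighborhoods, which left out 7 of 2624 loops and is the one reported. Alternatives are given in the closing section.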

Additional observations from a re-analysis of the deposited data

How the results depend on the processing

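The calls of weaker loops were the least stable values. Of 3 window loops tested, 3 were called with the bottom-left expectation, with at least 20 observed contacts, and with the filter fitted first (a donut expectation above 0). The filter of the reported test, an expectation above 0 in all 4 neighborhoods, was chosen after seeing the data. None was called (0) with the horizontal or vertical expectation, without an expectation (TMM), with DESeq2 (2 of 3 adjusted p-values were NA, and 2 had an unadjusted p under 0.05), with matching within 20 kb, or without any 1 library (0 to 0 called). A lone library left in a condition is assumed to vary like the other condition. Log2 changes of the 3 loops ran from -1.42 to -0.02, so their size was not stable. The 910 kb loop, at -1.13 in the reported test, shrank to -0.02 with the horizontal expectation and to -0.28 without an expectation. The 450 kb loop, at -0.86 in the reported test, shrank to -0.37 without THZ1 replicate 1. The cause was not tested.

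With the replicate number as a block, edgeR called 771 loops, 3 of them in the window (log2 changes from -1.14 to -0.83), against 722 without it. The replicate block changed no call in the window. Labels tie the numbers to nothing shared, and the difference between replicates correlated at 0.0173 across 2617 loops between conditions, so the samples share only a number.

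The log2 ratio of THZ1 to vehicle kept its sign for window loops and their median size in all settings, and for PVT1 loops. For MYC loops it was -0.09, turned to 2.32 with 25 kb anchors only, and ran from -0.30 to 0.087 when 1 library was left out, above 0 without THZ1 replicate 1. The share of loops of 90 kb or less turned to 0.040 with 5 kb anchors, 0.37 with 10 kb anchors and 0.058 with both anchors in the window, and ran from -0.33 to 0.35 without 1 library. The window's share of all loops ran from -0.27 to 0.082 without 1 library. Summed domain length turned to 0.24 for domains within the window. Loops called in all libraries were 28.4%, and 0% with 10 kb or 25 kb anchors only. Matching within 10 kb gave 17.2%, and matching within 50 kb gave 35.8%. The few contacts per loop limit each ratio, and 2 libraries per condition limit every test.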
